A study of Mus musculus with 6 samples.

Results

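The genes described here set the G1 decision of a cardiomyocyte: the D-type cyclins *Ccnd1*, *Ccnd2* and *Ccnd3*, their kinases *Cdk4* and *Cdk6*, the brakes *Cdkn1b*, *Rb1*, *Rbl1* and *Rbl2*, and the homeobox factor *Meis1*. They were taken by gene name from the deposited expression table, which held all 10 of them among 20066 genes. The table came from primary cardiomyocytes of C57BL/6 pups at postnatal day 0 to 1 that had been cultured for 96 h with the solvent dimethylsulfoxide (DMSO, 3 libraries) or with cell-permeable α-ketoglutarate (αKG, 3 libraries), a Krebs cycle intermediate. The labels give 100 µM αKG and no genetic change in either group and do not say how the libraries relate to cultures. The study's methods, under immunofluorescence and histology, state that a sample of neonatal cardiomyocytes stands for a single isolation from pooled hearts. Whether that holds for these libraries is not given. P-values therefore measure the spread between libraries, which may or may not be separate preparations, and not between animals. The study asked how fatty acid oxidation and αKG affect maturation and proliferation of cardiomyocytes, and the DMSO and αKG libraries compare the cells with and without added αKG. The cultures were dissociated neonatal hearts and hold more than cardiomyocytes. Because RNA was taken from the whole culture, fewer cells of a type and less RNA per cell cannot be told apart.

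In G1, D-type cyclins bind CDK4 or CDK6, and the active kinases phosphorylate the pocket proteins RB1, RBL1 (p107) and RBL2 (p130), which otherwise hold E2F factors and their target genes inactive. CDKN1B (p27) binds cyclin and CDK complexes and, in most settings, blocks them. Cardiomyocytes leave the cell cycle soon after birth, and MEIS1, a TALE homeobox factor, is known to favour that exit and to activate CDK inhibitor genes.

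Values are normalized read counts, that is, reads per gene divided by a size factor of the library and rounded by the authors. The libraries held an estimated 3726069 to 4427587 reads in genes. αKG replicate 3 stood apart from its group: over all genes its log2 values correlated at 0.962 and 0.963 with αKG replicates 1 and 2, but at 0.977 to 0.98 with the DMSO libraries. The results that rest on it are therefore given with and without it. It was singled out after its values were seen and is the αKG library most like DMSO. P-values and counts of calls without it are thus descriptive and no support for a difference. All 11 cardiomyocyte markers were listed, with a median log2 fold change of 0.13. Their summed level was 75447 to 78448 in DMSO and 80784 to 114154 in αKG, most of it from *Ttn*, and without *Ttn* it was 23878 to 24635 and 25215 to 30406. Markers of other cells were present in every library as well. The sums over 10 fibroblast markers were 3363 to 3578 in DMSO and 3409 to 7447 in αKG, those over 10 endothelial markers 1979 to 2099 and 1394 to 1505, those over 10 mural markers 4306 to 4415 and 4613 to 5027, and those over 10 epicardial markers 226 to 261 and 181 to 984. Of 10 macrophage markers, 5 were listed, with sums of 23 to 35 and 26 to 41, and the defining markers *Ptprc* and *Adgre1* were not among them.

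**Figure D1:**
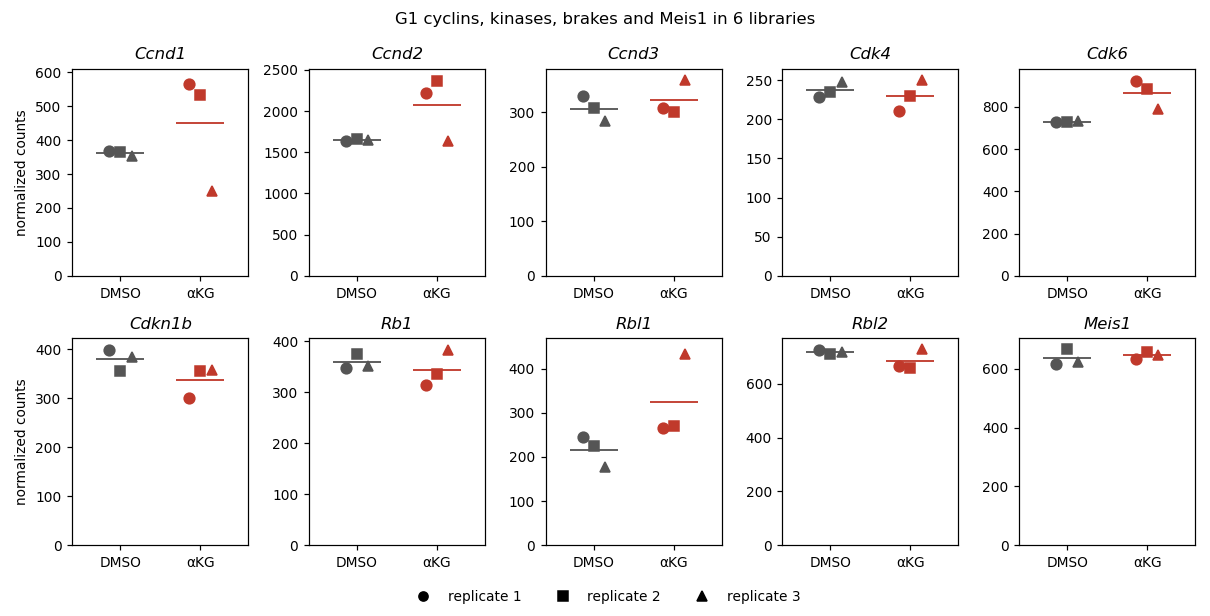
Normalized counts (vertical axes, each from 0) of the 10 genes in the 3 DMSO and 3 αKG libraries. Symbols mark the replicate and horizontal lines the group mean. *Ccnd1* lies at 566, 533 and 251 in αKG against 354 to 368 in DMSO, *Cdk6* and *Rbl1* do not overlap between the groups, and the other panels overlap or touch.

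None of the 10 genes differed between αKG and DMSO at a limma adjusted p under 0.05 when all 6 libraries were used, where 3.78% of all genes did (2.83% higher and 0.952% lower). Without adjustment, 3 of the 10 had a p under 0.05, namely *Ccnd2*, *Cdk6* and *Rbl1*, all higher in αKG, beside 28.1% of all genes (15.7% higher and 12.4% lower). Without αKG replicate 3, 3 of the 10 passed the adjusted threshold, namely *Ccnd1*, *Ccnd2* and *Cdk6*, again all higher, beside 37.2% of all genes (19.3% higher and 17.9% lower). The median log2 fold change of the 10 genes was 0.05, and that of all genes was 0.04. The counts of calls among the 10 genes are thus close to those of the table as a whole.

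Among the D-type cyclins, the αKG libraries were far apart from each other in *Ccnd1* and *Ccnd2*. *Ccnd1* (ENSMUSG00000070348, GRCm38 chr7:144929931-144939925, minus strand), the cyclin D that answers to growth factor signals, was at 368, 366 and 354 normalized counts in DMSO replicates 1 to 3 and at 566, 533 and 251 in αKG replicates 1 to 3. The first and the second αKG library were above every DMSO library, and the third was below every one of them. Over all libraries the log2 fold change was 0.22 ± 0.25 (SE, 95% interval -0.35 to 0.79, limma adjusted p = 0.582). Without αKG replicate 3 it was 0.60 (0.47 to 0.73, limma adjusted p = 0.000953), a fold of 1.51, whereas it was 0.01 without αKG replicate 1 and 0.06 without αKG replicate 2.

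*Ccnd2* (ENSMUSG00000000184, chr6:127125162-127152193, minus strand), the cyclin D with the highest level here, was at 1640, 1656 and 1644 in DMSO and at 2221, 2360 and 1640 in αKG. αKG replicate 3 thus equalled the lowest DMSO library, and the other αKG libraries were above all of them. Its log2 fold change was 0.31 ± 0.12 (0.06 to 0.57, limma adjusted p = 0.122), and without αKG replicate 3 it was 0.48 (0.39 to 0.56, limma adjusted p = 0.000668), a fold of 1.39. *Ccnd3* (ENSMUSG00000034165, chr17:47505051-47599691, plus strand), the cyclin D that is widespread in differentiated tissues, showed no such pattern: it was at 329, 307 and 283 in DMSO and at 307, 300 and 358 in αKG. Here αKG replicate 3 was the highest of all libraries. The log2 fold change was 0.07 ± 0.10 (-0.16 to 0.30, limma adjusted p = 0.686), and -0.01 without that library (limma adjusted p = 0.923).

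**Figure D2:**
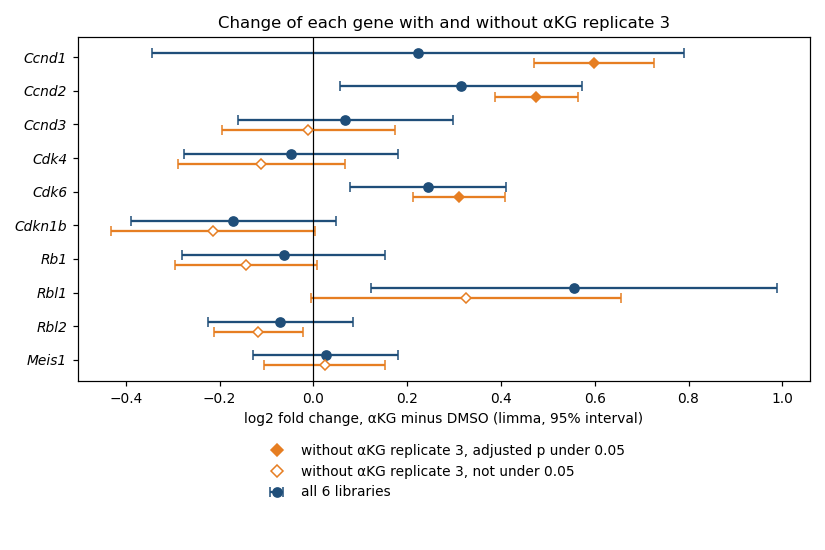
Log2 fold change of each gene (horizontal axis, αKG minus DMSO) with its 95% interval from limma, over all 6 libraries (circles) and without αKG replicate 3 (diamonds, filled where the adjusted p was under 0.05). The filled diamonds are *Ccnd1* at 0.60, *Ccnd2* at 0.48 and *Cdk6* at 0.31, while no gene passed with all libraries.

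Exon length was taken over all annotated exons of a gene, whichever of them the cells used, so values per kb and shares depend on the annotation. Divided by this length, the sum of the D-type cyclins was 289.9, 288.7 and 282 normalized counts per kb in DMSO. In αKG it was 391, 398 and 268. *Ccnd2* made up 61.0% ± 0.9 of that sum in DMSO and 62.8% ± 2.3 in αKG (SD, n = 3 each), and *Ccnd3* made up 12.2% ± 0.8 and 10.9% ± 3.7. The share of *Ccnd1* was 26.8% ± 0.2 in DMSO and 26.3% ± 5.7 in αKG, with 30.7%, 28.4% and 19.9% in the single αKG libraries. The mean shares of the 3 cyclins therefore differed by less than the spread between the αKG libraries. *Ccnd3* made up 8.9%, 8.6% and 15.2% of the sum in the single αKG libraries. In αKG replicate 3 the share of *Ccnd1* was below that of every DMSO library, and those of *Ccnd2*, at 64.9%, and *Ccnd3* were above.

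By their medians, epicardial, fibroblast, mural and cardiomyocyte markers moved with *Ccnd1* and *Ccnd2* across the αKG libraries, and endothelial markers did not. As a log2 difference from the DMSO mean, *Ccnd1* was at 0.64, 0.55 and -0.53 in αKG replicates 1 to 3. The median of the 10 epicardial markers was at 2.25, 2.03 and -0.79 in the same libraries. That of the 10 fibroblast markers was at 0.74, 0.72 and -0.02. The medians of the 10 mural and of the 11 cardiomyocyte markers were at 0.42, 0.31 and -0.02 and at 0.24, 0.16 and -0.01. The median of the 10 endothelial markers was at -0.91, -1.03 and -0.58, below DMSO in all of them. For example, *Col1a1*, a collagen of fibroblasts, was at 951 to 1018 in DMSO and at 2402, 2288 and 1042 in αKG. *Wt1*, an epicardial factor, was at 29 to 35 and at 69, 63 and 21. Of the 10 endothelial markers, 3 had a positive log2 fold change, and among these *Flt1* and *Tek* had the pattern of *Ccnd1*. *Flt1* was at 485, 510 and 499 in DMSO and at 733, 719 and 411 in αKG. *Tek* was at 65, 71 and 58 and at 115, 96 and 54. The part of these cells in the cyclin values was not tested. With all libraries, 0 of 10 fibroblast and 0 of 10 epicardial markers passed the adjusted threshold, while 6 of 10 endothelial markers were lower and 2 of 10 mural markers higher, beside 2.83% of all genes that were higher and 0.952% that were lower. With αKG replicate 3 left out, 8 fibroblast, 10 epicardial, 6 cardiomyocyte, 4 mural and 2 endothelial markers were higher, beside 19.3% of all genes. In the same fit 1 cardiomyocyte, 1 mural and 6 endothelial markers were lower, beside 17.9% of all genes.

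**Figure D3:**
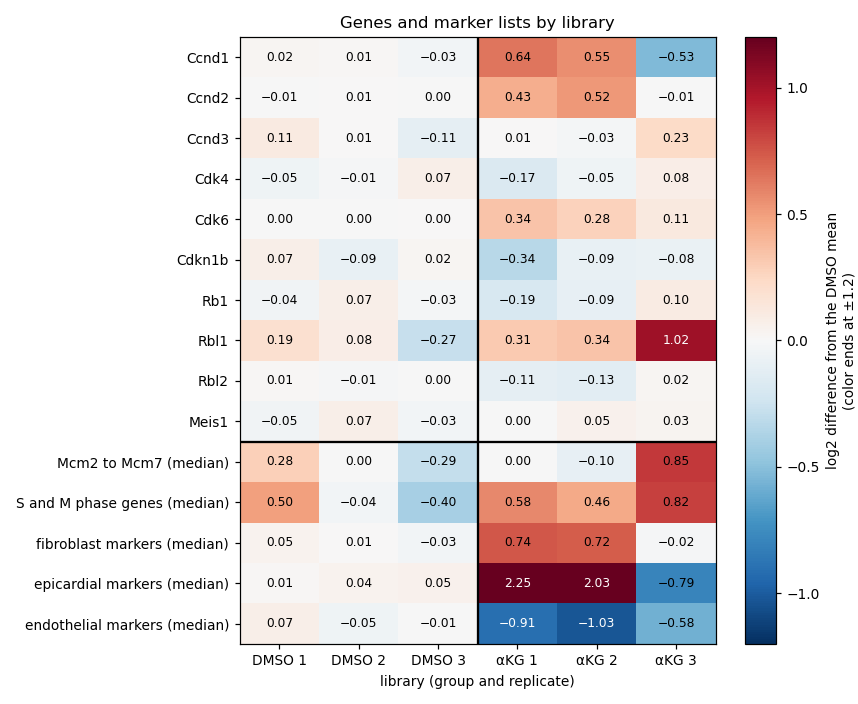
Log2 difference from the DMSO mean (color and printed value) of the 10 genes and of the medians of 5 gene lists, for each library. Cardiomyocyte and mural medians are given in the text and are not drawn. *Ccnd1* shares its signs with the epicardial markers in αKG (0.64, 0.55 and -0.53 against 2.25, 2.03 and -0.79), and *Rbl1* is highest, at 1.02, in the library where the Mcm2 to Mcm7 median is highest, at 0.85.

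The kinases differed from each other. *Cdk6* (ENSMUSG00000040274, chr5:3341485-3531008, plus strand), a kinase partner of the D-type cyclins, was at 728, 728 and 731 in DMSO and at 924, 885 and 789 in αKG. Every αKG library was above every DMSO library, and αKG replicate 3 was again the lowest of its group. Its log2 fold change was 0.24 ± 0.07 (0.08 to 0.41, limma adjusted p = 0.084), and without αKG replicate 3 it was 0.31 (0.21 to 0.41, limma adjusted p = 0.00268), a fold of 1.24. A correction of each library for GC content and exon length left 0.06 (limma adjusted p = 0.552), so that the size of the *Cdk6* difference depended on that correction.

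*Cdk4* (ENSMUSG00000006728, chr10:127063534-127067920, plus strand), its close relative and the other partner of these cyclins, was at 228, 235 and 248 in DMSO and at 210, 229 and 250 in αKG. All DMSO libraries lay inside the αKG range. The log2 fold change was -0.05 ± 0.10 (-0.28 to 0.18, limma adjusted p = 0.781), and -0.11 without αKG replicate 3 (limma adjusted p = 0.279). Within the sum of the kinases per kb of exon, *Cdk6* made up 41.7% ± 1.0 in DMSO and 46.7% ± 4.2 in αKG (SD, n = 3 each), and the single αKG libraries gave 50.5%, 47.3% and 42.3%, the last of which lay inside the DMSO range of 40.6% to 42.6%.

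The promoter of *Cdk4* is shown because MYC, which binds the E-box CACGTG, is one of the factors known to act upstream of these genes. RefSeq (GRCm38.p6) gave windows of 250 bases before the start for 7 of the 10 genes, all but *Ccnd1*, *Ccnd2* and *Rb1*. They were searched on both strands for the E-box CACGTG, for the E2F motifs TTTCGCGC, TTTGGCGC, TTTCCCGC and TTTGCCGC, and for the cell cycle homology region (CHR) TTTGAA. An E-box was found in the windows of *Cdk4* and *Cdk6*, beside 6.02% of all 32851 windows. The *Cdk4* window, on the plus strand, is printed without its last base, which lies in the first exon of *Cdk4*, as chr10:127063285-127063533, and holds 4 E-boxes, in capitals, which begin 172, 118, 98 and 11 bases before the start. At least a pair of E-boxes was found in 0.429% of all windows.
Cdk4 promoter: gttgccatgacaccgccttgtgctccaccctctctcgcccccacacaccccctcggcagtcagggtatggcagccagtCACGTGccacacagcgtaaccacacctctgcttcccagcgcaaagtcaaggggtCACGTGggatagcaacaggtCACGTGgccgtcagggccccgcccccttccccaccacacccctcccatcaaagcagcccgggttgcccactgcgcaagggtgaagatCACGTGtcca

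*Myc* itself, which is among the upstream factors below and was named after its values were seen, was at 41, 57 and 58 in DMSO and at 92, 112 and 60 in αKG, and its log2 fold change was 0.72 ± 0.25 (limma adjusted p = 0.107), and 0.97 without αKG replicate 3 (limma adjusted p = 0.0104). *Cdk6*, with 1 E-box in its window, and *Cdk4*, with 4, stood at log2 fold changes of 0.24 and -0.05 in the same libraries. After correction for GC content and length these were 0.06 and -0.05. Whether MYC acts on either gene in these cells was not tested.

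*Cdkn1b* (ENSMUSG00000003031, chr6:134920401-134925513, plus strand), the CIP/KIP inhibitor that restrains cyclin and CDK complexes in quiescent cells, was at 398, 356 and 385 in DMSO and at 300, 356 and 358 in αKG. The αKG libraries did not exceed the lowest DMSO library by more than 2 normalized counts, but the groups overlapped. For *Cdkn1b* the log2 fold change was -0.17 ± 0.10 (-0.39 to 0.05, limma adjusted p = 0.278), and -0.21 without αKG replicate 3 (limma adjusted p = 0.108). It was -0.30 after correction for GC content and length (limma adjusted p = 0.0967), so the gene kept its sign but passed no threshold.

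Of the pocket proteins, *Rbl1* alone did not overlap between the groups. *Rbl1* (ENSMUSG00000027641, chr2:157145893-157204534, minus strand), the pocket protein p107 that is itself made as cells pass from G1 into S phase, was at 245, 226 and 177 in DMSO and at 266, 271 and 434 in αKG. The lowest αKG library was above the highest DMSO library, and αKG replicate 3, where *Ccnd1* was lowest, was the highest. The log2 fold change was 0.56 ± 0.19 (0.12 to 0.99, limma adjusted p = 0.110), a fold of 1.47. Without αKG replicate 3 it was 0.33 (-0.005 to 0.66, limma adjusted p = 0.108).

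*Rb1* (ENSMUSG00000022105, chr14:73183673-73325822, minus strand), the retinoblastoma protein, was at 348, 375 and 351 in DMSO and at 313, 335 and 383 in αKG, a log2 fold change of -0.06 ± 0.10 (-0.28 to 0.15, limma adjusted p = 0.692). *Rbl2* (ENSMUSG00000031666, chr8:91070057-91123844, plus strand), the pocket protein p130 of resting cells and part of the DREAM repressor complex, was at 724, 710 and 716 in DMSO and at 664, 657 and 729 in αKG, a log2 fold change of -0.07 ± 0.07 (-0.23 to 0.09, limma adjusted p = 0.529). Both were below every DMSO library in αKG replicates 1 and 2 and above every one in αKG replicate 3. Without that library the log2 fold changes were -0.14 for *Rb1* (limma adjusted p = 0.121) and -0.12 for *Rbl2* (limma adjusted p = 0.0579). Correction for GC content and length gave -0.26 (limma adjusted p = 0.162) and -0.15 (limma adjusted p = 0.204).

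Of the sum of the pocket proteins per kb of exon, *Rbl1* made up 18.9% ± 2.5 in DMSO and 26.4% ± 4.1 in αKG (SD, n = 3 each). The single libraries gave 21%, 19.4% and 16.2% in DMSO and 24.1%, 24.1% and 31.1% in αKG, and did not overlap. *Rbl2* held the largest share in every library, with 49.8% ± 1.8 and 45.1% ± 3.3, and *Rb1* held 31.3% ± 1.3 and 28.4% ± 1.1. With 3 libraries in each group no exact permutation test of such a share can give a p under 0.10, and none was run.

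*Rbl1* moved with genes of DNA replication from library to library. As a log2 difference from the DMSO mean it was at 0.19, 0.08 and -0.27 in DMSO and at 0.31, 0.34 and 1.02 in αKG. The median over *Mcm2* to *Mcm7*, which encode the replicative helicase, was at 0.28, 0.00 and -0.29 in DMSO and at 0.00, -0.10 and 0.85 in αKG. The order within DMSO and the high value of αKG replicate 3 were thus alike, while αKG replicates 1 and 2 were above DMSO replicate 1 in *Rbl1* only. Of 20 genes of S and M phase, such as *Mki67*, 3 passed the adjusted threshold, all higher, beside 2.83% of all genes. The log2 fold changes of all 20 were positive, with a median of 0.62. Without αKG replicate 3 those of 7, among them *Mcm2* to *Mcm7*, were negative, and the median was 0.54. By library, the median of the 20 genes was at 0.50, -0.04 and -0.40 in DMSO and at 0.58, 0.46 and 0.82 in αKG. By this median, αKG replicate 2 lay below DMSO replicate 1, so the size of the rise depends on DMSO replicates 2 and 3. The part of cycling cells in the *Rbl1* values was not tested.

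The promoters of *Rbl1* and *Rbl2* are shown side by side because these relatives sit on different sides of 0. The windows lie at chr2:157204535-157204784 on the minus strand for *Rbl1* and at chr8:91069807-91070056 on the plus strand for *Rbl2* (RefSeq, GRCm38.p6), and overlap no annotated exon. Capitals mark the E2F motif of *Rbl1*, which begins 18 bases before the start, and the CHR motif of *Rbl2* on the other strand, 201 bases before the start.
Rbl1 promoter: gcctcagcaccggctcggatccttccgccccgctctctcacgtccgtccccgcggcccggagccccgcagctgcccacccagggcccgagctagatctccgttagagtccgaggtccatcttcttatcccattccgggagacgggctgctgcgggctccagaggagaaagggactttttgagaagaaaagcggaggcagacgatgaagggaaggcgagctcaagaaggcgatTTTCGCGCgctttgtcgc
Rbl2 promoter: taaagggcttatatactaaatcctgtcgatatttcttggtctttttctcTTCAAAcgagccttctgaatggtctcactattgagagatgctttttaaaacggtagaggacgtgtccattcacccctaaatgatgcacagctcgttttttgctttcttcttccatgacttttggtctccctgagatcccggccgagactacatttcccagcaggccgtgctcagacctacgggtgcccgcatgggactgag

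Counted by gene, an E2F motif was found in 2.16% of 27025 genes with a window, in 1 of the 7 genes described here and in 3 of the 5 genes of *Mcm2* to *Mcm7* that had a window, namely *Mcm5*, *Mcm6* and *Mcm7*. A CHR motif was found in 16.0% of all windows. A match is a description of the letters in the window and not evidence of binding.

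*Meis1* (ENSMUSG00000020160, chr11:18879817-19018985, minus strand) was at 615, 668 and 622 in DMSO and at 633, 658 and 648 in αKG. All αKG libraries lay inside the DMSO range. The log2 fold change was 0.03 ± 0.07 (-0.13 to 0.18, limma adjusted p = 0.83), and 0.02 without αKG replicate 3 (limma adjusted p = 0.75), but -0.17 after correction for GC content and length (limma adjusted p = 0.181). The corrected value lies outside the 95% interval of the uncorrected one.

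**Figure D4:**
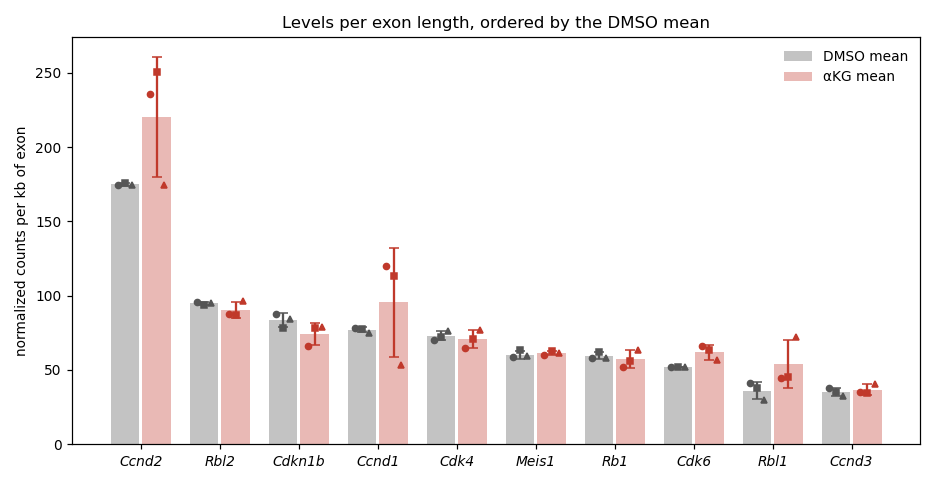
Normalized counts per kb of exon of the 10 genes, ordered by the DMSO mean. Bars are group means, error bars the SD of 3 libraries, and symbols the single libraries (replicate 1 circle, 2 square, 3 triangle). *Ccnd2* stands above all others at 175.0 in DMSO and 220 in αKG, and the error bars of *Ccnd1*, *Ccnd2* and *Rbl1* are wide in αKG only.

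Levels between genes were compared per kb of all annotated exons, from 3249 bases for *Cdk4* to 13989 for *Cdk6*. The order of the genes may differ if the cells use shorter transcripts, which was not tested. In DMSO, *Ccnd2* was the highest at 175.0 ± 0.9 normalized counts per kb (SD, n = 3), followed by *Rbl2* at 94.8 ± 0.9, *Cdkn1b* at 83.4 ± 4.7 and *Ccnd1* at 77.0 ± 1.6, with *Cdk4* at 72.9 ± 3.1. *Meis1* at 60.3 ± 2.7, *Rb1* at 59.5 ± 2.5 and *Cdk6* at 52.1 ± 0.1 came next, and *Rbl1* at 36 ± 5.9 and *Ccnd3* at 34.9 ± 2.6 were the lowest. Neighbours that overlapped between libraries were *Ccnd1* and *Cdk4*, *Meis1* and *Rb1*, and *Rbl1* and *Ccnd3*. In αKG, *Ccnd2* was again the highest at 220 ± 40.6 and *Ccnd3* the lowest at 36.7 ± 3.6, while *Ccnd1* at 95.6 ± 36.8 overlapped *Rbl2* at 90.4 ± 5.3. From *Cdkn1b* at 74.3 ± 7.2 through *Cdk4*, *Cdk6*, *Meis1* and *Rb1* to *Rbl1* at 54 ± 15.9, each gene overlapped the next in αKG.

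The spread between libraries differed between the groups for these genes. It was set against the noise expected from counting reads alone, as a chi-square per degree of freedom that averages 1 where the spread is that of counting. In DMSO, 6 of the 10 genes were below 1 and only *Rbl1*, at 6.05, was above 3, with a median of 0.549. In αKG, 7 of the 10 were above 3, with a median of 3.42 and with *Ccnd2* at 71.1, *Ccnd1* at 68.7 and *Rbl1* at 28. *Meis1*, at 0.224, was the only one below 1 in αKG. The wider spread in αKG was shared by the table: of 5065 genes whose mean lay in the range of these 10, 10.5% were above 3 in DMSO and 56.4% in αKG, with medians of 0.753 and 3.79. Of the same genes, 59.1% were below 1 in DMSO and 18.5% in αKG. Reads are not molecules here, so this measure covers counting error only.

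Exons of other genes overlap those of 8 of the 10 genes. Whether reads were counted by strand is not given in the sources used here, so the values of these genes are uncertain to that extent. The study's methods for RNA-seq say that reads overlapping several genes were left out. Had strand been ignored, shared bases would give no reads, while levels per kb still divide by the full exon length. *Ccnd1* shares 23.4% of its exon bases with LTO1 on the other strand, which had a mean of 134.5 normalized counts, and *Cdk4* shares 19.7% with *Tspan31*, which had a mean of 202. *Rbl2* shares 11.8% with *Gm45464* and 9.17% with *Aktip*, and *Rb1* shares 8.11% with *Rcbtb2* and 6.78% with *Lpar6*. *Ccnd2*, *Ccnd3*, *Cdk6* and *Meis1* share 2.63% to 9.77% with any 1 such gene, and *Cdkn1b* and *Rbl1* share none.

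Around these genes, 59 further genes of G1 control were listed by role, of which 58 were in the table and 1, *Hoxb13*, was not. With all libraries 1 of the 58 passed the adjusted threshold, beside 3.78% of all genes. Of the 58, 22 had an unadjusted p under 0.05, 11 in each direction, beside 28.1% of all genes (15.7% higher and 12.4% lower). Without αKG replicate 3, 8 were higher and 16 lower at the adjusted threshold, beside 19.3% and 17.9% of all genes. The median log2 fold change was -0.02.

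**Figure D5:**
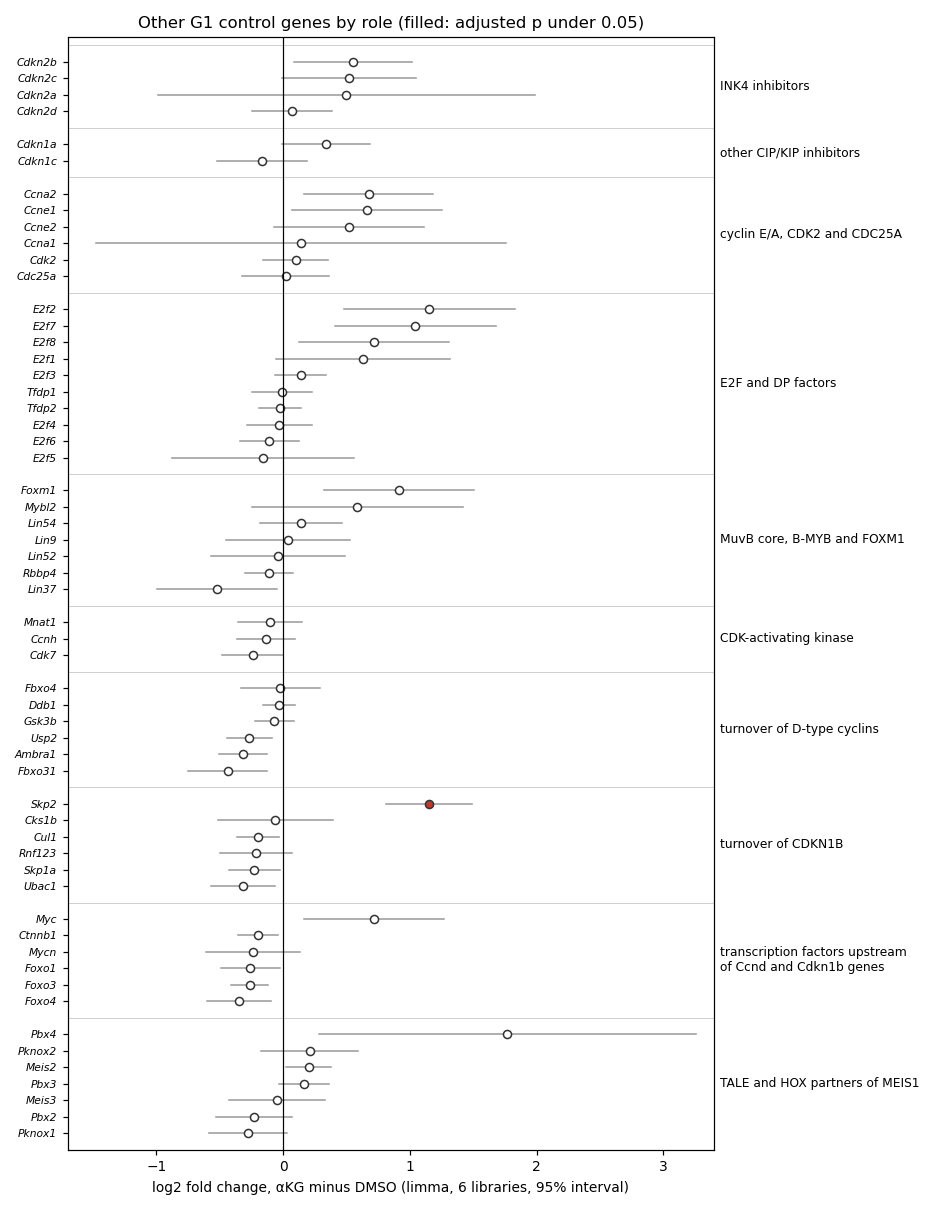
Log2 fold change (horizontal axis, αKG minus DMSO, all 6 libraries) with its 95% interval for 57 of the 58 further genes of G1 control, grouped by role. The filled point is *Skp2* at 1.15, the only gene with a limma adjusted p under 0.05; the genes for the turnover of D-type cyclins lie below 0 when all libraries are used.

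The gene that passed was *Skp2*, the F-box protein that brings CDKN1B to its ubiquitin ligase. It was at 69, 61 and 62 normalized counts in DMSO and at 152, 122 and 158 in αKG. All αKG libraries, replicate 3 included, were above all DMSO libraries. With all libraries the log2 fold change was 1.15 ± 0.15 (limma adjusted p = 0.0084), and 1.08 without αKG replicate 3 (limma adjusted p = 0.0022). The call was lost in 7 of 16 alternative fits, for instance without αKG replicate 1 (limma adjusted p = 0.203), while the log2 fold change stayed between 1.04 and 1.26. Of the other 5 genes for CDKN1B turnover, all had a negative log2 fold change and none passed with all libraries, and 4 were lower without αKG replicate 3, beside 17.9% of all genes, namely *Skp1a*, *Cul1*, *Rnf123* and *Ubac1*, named after their values were seen. *Skp2* therefore stood apart from the ligase genes listed with it, and *Cdkn1b* itself was at -0.17.

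The 4 INK4 genes encode inhibitors that bind CDK4 and CDK6 and keep D-type cyclins off. Values are per gene, so different products of *Cdkn2a* were not told apart. All 4 had a positive log2 fold change, with a median of 0.51, and none passed with all libraries. After leaving out αKG replicate 3, 2 of them passed, beside 19.3% of all genes that were higher. *Cdkn2b* was at 46, 40 and 38 in DMSO and at 72, 65 and 48 in αKG and did not overlap (log2 fold change 0.55 ± 0.21, limma adjusted p = 0.129, and 0.0119 without αKG replicate 3). *Cdkn2a* was at 4, 7 and 7 and at 14, 19 and 2, with a limma adjusted p of 0.644 and of 0.0258 without αKG replicate 3. Like *Ccnd1*, both were lowest within αKG in replicate 3. *Cdkn2c*, at 165, 119 and 97 in DMSO and at 150, 151 and 251 in αKG (0.52 ± 0.24, limma adjusted p = 0.182), and *Cdkn2d*, at 114, 105 and 102 and at 99, 112 and 128 (0.07 ± 0.14, limma adjusted p = 0.759), were highest there, as *Rbl1* was. Without that library they stood at 0.28 and -0.02.

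Of the other CIP/KIP inhibitors, *Cdkn1a* (p21), a target of p53, was at 287, 285 and 314 in DMSO and at 438, 422 and 281 in αKG. Its pattern was that of *Ccnd1*, with αKG replicate 3 below all DMSO libraries. Over all libraries its log2 fold change was 0.34 ± 0.16 (limma adjusted p = 0.189), and 0.54 without αKG replicate 3 (limma adjusted p = 0.00212). *Cdkn1c* (p57), an imprinted inhibitor, was at 82, 76 and 78 and at 75, 76 and 60 (-0.17 ± 0.16, limma adjusted p = 0.513), and its log2 fold change was -0.06 without αKG replicate 3.

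Downstream of the pocket proteins, the 6 genes for cyclins E and A, CDK2 and CDC25A all had a positive log2 fold change, with a median of 0.33, and none passed with or without αKG replicate 3. Without that library 4 were positive and 2 negative, with a median of 0.27. *Ccne1* was at 121, 94 and 70 in DMSO and at 125, 115 and 221 in αKG (0.66 ± 0.27, limma adjusted p = 0.145), and *Ccne2* at 233, 208 and 159 and at 220, 224 and 461 (0.52 ± 0.26, limma adjusted p = 0.227). *Cdk2*, the kinase of these cyclins, was at 357, 321 and 307 and at 333, 317 and 409 (0.10 ± 0.11, limma adjusted p = 0.588). The values of *Ccne1*, *Ccne2* and *Cdk2* without αKG replicate 3 were 0.37, 0.17 and -0.01, and correction for GC content and length gave -0.01 for *Ccne2*. The E and A cyclins were highest in αKG replicate 3, with the exception of *Ccna1*, which was listed at 0 there.

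Of 10 E2F and DP genes, 5 had a positive and 5 a negative log2 fold change. *E2f1*, an activator E2F held by RB1, was at 148, 93 and 66 in DMSO and at 115, 132 and 223 in αKG (0.63 ± 0.31, limma adjusted p = 0.212), and its log2 fold change was 0.34 without αKG replicate 3. *E2f2* at 1.15 ± 0.30 (limma adjusted p = 0.0609) and *E2f7* at 1.04 ± 0.28 (limma adjusted p = 0.066), named after their values were seen, had the highest log2 fold changes of this role, and neither overlapped between the groups. Their values without αKG replicate 3 were 0.88 (limma adjusted p = 0.0358) and 0.80 (limma adjusted p = 0.0801). *E2f4*, *E2f5* and *E2f6* lay at -0.03, -0.16 and -0.11. Without αKG replicate 3 they lay at -0.11, 0.25 and -0.21, and *E2f6* passed (limma adjusted p = 0.0379). The remaining genes of this role, *E2f3*, *E2f8*, *Tfdp1* and *Tfdp2*, lay at 0.14, 0.72, -0.01 and -0.02 with all libraries.

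The 6 genes for the turnover of D-type cyclins all had a negative log2 fold change with all libraries, with a median of -0.17, and 5 of them had without αKG replicate 3. Without αKG replicate 3, 3 of them were lower at the adjusted threshold, beside 17.9% of all genes, namely *Fbxo31*, *Ambra1* and *Usp2*, of which the first and second encode ligase parts that mark D-type cyclins for destruction and the third a protease that removes the mark. *Ambra1* was at 410, 414 and 395 in DMSO and at 333, 301 and 344 in αKG (-0.32 ± 0.09, limma adjusted p = 0.0637), and did not overlap. These 3 genes were named after their values were seen. Of the 6 upstream transcription factors, *Myc* was the only one with a positive log2 fold change, and without αKG replicate 3 it was higher at the adjusted threshold. *Foxo1*, *Foxo3*, *Foxo4* and *Ctnnb1* were lower in that fit, beside 17.9% of all genes.

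Among the 8 listed TALE and HOX partners of MEIS1, the relative *Meis2* was at 587, 678 and 641 in DMSO and at 757, 748 and 686 in αKG and did not overlap, unlike *Meis1*. Its log2 fold change was 0.20 ± 0.08 (limma adjusted p = 0.136), and 0.25 without αKG replicate 3 (limma adjusted p = 0.0291), but 0.02 after correction for GC content and length (limma adjusted p = 0.851).

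The groups did not overlap in 2 of the 10 genes, *Cdk6* and *Rbl1*, both higher in αKG, beside 28.3% of all genes (13.7% higher and 14.6% lower). *Cdk6* had the smallest p of the 10 genes (limma, unadjusted p = 0.00841). The genes with the pattern most like it, by Pearson correlation of log2(value + 1) over the 6 libraries among 8294 genes with a mean of at least 100, included *Robo1* (0.998) and *Anapc1* (0.997). Both share with *Cdk6* a nearly constant DMSO group and the order of αKG replicates 1, 2 and 3, and the correlation rests on 6 points of which αKG replicate 3 stands apart from its group. *Robo1*, a guidance receptor, was at 101, 103 and 106 in DMSO and at 259, 219 and 133 in αKG. The folds were unlike, since *Anapc1*, part of the anaphase-promoting complex, was at 1029, 1026 and 1017 in DMSO and at 1269, 1204 and 1100 in αKG.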

How the data were processed

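Total RNA of neonatal mouse cardiomyocytes (3 DMSO and 3 αKG libraries) was sequenced with a stranded kit. Per the study's methods and the submitters' processing notes, the authors used Trimmomatic 0.39 for trimming, STAR 2.7.10a for alignment to mm10 (GRCm38), featureCounts 2.0.3 for counting and DESeq2 1.30.1 for normalization. The deposited values are treated as a score, because the authors had divided the counts by a size factor and rounded them, so that count tests were not used. The value of 1 read was estimated from the spacing of low values (0.926 to 1.12) and gave the depth; the estimate was tested on simulated data, with a largest error of 0.05%.

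All 6 libraries entered limma 3.58.1 (R 4.3.3; Python 3.11.15) on log2(value + 1) with a variance trend and treatment as the only term, with two-sided p-values adjusted by Benjamini-Hochberg over 20066 genes. In simulated tables of 18797 genes with 200 changed, 2 of 70 genes changed by 0.3 on the log2 scale were called, 37 of 61 changed by 0.6 and 69 of 69 changed by 1. These tables drew the libraries independently and held none that stood apart as αKG replicate 3 did. The rates therefore need not hold for the deposited table. A fold change on the log2(value + 1) scale understates that of low genes. Exon lengths and GC content came from GENCODE M21 (GRCm38), where 99% of the table's genes had identical positions, and promoters from RefSeq. Where genes shared a symbol (9 symbols), that of higher mean was kept.

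Named were all 10 genes, 11 fixed G1 genes (*Cdkn1a*, *Cdkn1c*, the 4 INK4 genes, *Ccne1*, *Ccne2*, *Cdk2*, *E2f1* and *Meis2*), up to 8 further genes of the G1 lists past the threshold, and the genes most like the one with the smallest p. Some results that the rule would name are not reported here. The genes and lists were chosen with earlier results of these data known. Alternatives were a filter on low values, another pseudocount, other scalings, no variance trend, a replicate block, GC and length correction, voom on estimated reads, an average of DMSO replicates 2 and 3, unadjusted p-values and each library left out. The αKG concentration given is that of the labels, and differs from the one in the methods for octyl-αKG.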

Additional observations from a re-analysis of the deposited data

How the results depend on the processing

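Of the 10 G1 genes, 0 passed the adjusted threshold in every alternative fit except the one without αKG replicate 3, where 3 did, and 3 had an unadjusted p under 0.05; leaving out 1 library in turn gave 0 to 3. Of all genes, 759 were called, against 346 with a pseudocount of 0.1, 27 without the variance trend, 338 with voom on estimated reads, 19 with DMSO replicates 2 and 3 averaged, 1232 with GC and length correction and 5648 without adjustment; single libraries left out gave 0 (without αKG replicate 1 or 2) to 7466 (without αKG replicate 3). Of those called, 74.8% were higher, but 42.5% with GC and length correction. Of the 58 further genes, 1 was called, against 2 with the filter, 0 without the trend, 0 with the average, 3 with GC and length correction, 22 without adjustment and 0 to 24 with 1 library left out. The cause of these shifts was not tested.

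The replicate numbers were not shown to pair the libraries: deviations of same-numbered libraries correlated at -0.07, 0.14 and 0.00. With the replicate number as a block, 46 genes were called, and 1738 (41.1% higher) with GC and length correction as well; among the further genes the replicate block gave 0 and 4, and among the 10 genes 0 in both.

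Of 351 values of 22 named genes under 16 alternatives, 327 kept their sign and their side of the threshold, 7 lost the call (all *Skp2*) and 7 gained it (all without αKG replicate 3). The sign turned in 10. With GC and length correction, with or without the replicate block, these were *Meis1* (-0.1657) and *Ccne2* (-0.0117). With single libraries left out, *Ccnd3* ranged from -0.0107 to 0.1211, *Cdk4* from -0.1107 to 0.0146, *Rb1* from -0.1436 to 0.0016, *Cdkn2a* from -0.028 to 1.3404, *Cdkn2d* from -0.0213 to 0.1624 and *Cdk2* from -0.0122 to 0.1711; αKG replicate 3 turned *Ccnd3*, *Cdkn2d* and *Cdk2*, αKG replicate 1 *Cdk4* and *Rb1*, and αKG replicate 2 *Cdkn2a*. The depth of 3726069 to 4427587 reads limits genes such as *Cdkn2a*, which had 2 to 19 normalized counts.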
